A study of Mus musculus with 2 samples.

Results

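Oxidative phosphorylation runs on 5 protein complexes of the inner mitochondrial membrane, and their subunits were followed here across the main white cell types of mouse blood. The members were the genes of the deposited gene list whose symbols start with Nduf, Uqcr, Atp5, Cox4i, Cox5, Cox6, Cox7 or Cox8, the mitochondrially encoded mt-Nd, mt-Co, mt-Atp and mt-Cytb genes, and Sdha to Sdhd. This rule found 105 of 27998 genes, and 98 of them held at least 50 unique molecular identifiers (UMIs, 1 per captured RNA molecule) over the filtered cells of both libraries, as did 9838 genes in all. The 98 comprised 76 nuclear genes for subunits, all 13 mitochondrial protein-coding genes, 7 assembly factors of complex I named Ndufaf and the factors Atp5s and Atp5sl. Only complex IV genes missed the minimum, 7 of its 20 nuclear symbols: Cox7a1 had 11 UMIs, Cox6b2 had 44 and Cox4i2 had 1, while Cox7b2, Cox8b, Cox8c and Ndufa4l2 had 0. Just inside the minimum were Atp5s with 67 UMIs, Cox6a2 with 110 and Ndufaf6 with 141.

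Electrons from NADH enter at complex I and those from succinate at complex II, pass through complex III to complex IV, where oxygen is reduced, and the proton gradient built on the way drives the ATP synthase, complex V. Mitochondrial DNA encodes part of every complex except complex II, always subunits of the catalytic or membrane core, and the nucleus encodes the rest, so each assembled complex of mixed origin needs products of both genomes. Mitochondrial genes are transcribed as long polycistronic RNAs that are cut at the tRNAs between them, so their RNA levels are set by a different machinery from that of the nuclear subunits.

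The study profiled peripheral blood mononuclear cells of female C57Bl/6 mice, 10 weeks old, by droplet-based 3' single-cell RNA sequencing. The mutant group carried the genotype MvkV377I/del91, 2 altered alleles of mevalonate kinase, an enzyme of the isoprenoid and cholesterol pathway, and the control group was wildtype, Mvk+/+. Blood of 3 mice was pooled per genotype, red cells were lysed, and live cells without DAPI stain or the erythroid antigen Ter119 were sorted. They were loaded as 1 library per genotype, with 2000 cells targeted. Genotype, pool of mice and library are therefore the same split and cannot be told apart, and no test between genotypes is possible.

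After filtering, 4121 mutant and 5092 wildtype cells with 9157759 and 11402169 UMIs remained, at medians of 1956 and 2014.5 UMIs per cell, and 26 barcodes occurred in both libraries. Mvk itself was at 5.13 UMIs per 1000000 (CPM) in the mutant cells (47 UMIs) and 5.44 CPM in the wildtype cells (62 UMIs), and 3' tags do not read the alleles. Cells were clustered without the members and without any other mitochondrial gene, and clusters were called by their markers. The 5 classes large enough in both libraries were compared. They held 1111 mutant and 1025 wildtype B-like cells, 946 and 1411 CD8 T-like cells, 1375 and 1392 CD4 T-like cells, 93 and 98 monocyte-like cells and 193 and 886 NK-like cells. Red cell marker RNA (7 genes, haemoglobins included) was present in every mutant class and moved with the libraries: in CPM it stood at 4097 and 313 in mutant and wildtype B-like cells and at 11861 and 305 in NK-like cells, and its part in the differences between libraries was not tested. In barcodes with at most 20 UMIs, which hold free RNA, mitochondrial subunits made up 74909 and 72299 CPM and nuclear subunits 18495 and 19068 CPM. All values below are given as mutant first and wildtype second where no library is named. A level is the UMIs of a gene or group per 1000000 UMIs of the class, each UMI marks the 3' end of 1 molecule without scaling to transcript length, and 95% intervals are exact and cover counting error only.

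The classes differed in the balance between the 2 genomes. For every UMI of a nuclear subunit, B-like cells held 2.1 and 2.14 mitochondrial subunit UMIs, CD8 T-like cells 1.58 and 1.71, CD4 T-like cells 1.53 and 1.63, monocyte-like cells 0.927 and 0.885 and NK-like cells 0.821 and 0.768. The ratio of B-like cells was thus 2.55 times that of NK-like cells in the mutant and 2.79 times in the wildtype library. In both libraries the order from B-like over CD8 T-like and CD4 T-like to monocyte-like and NK-like cells was the same, and no 95% interval of one class overlapped that of the next. This measure does not depend on how the total is scaled. B-like cells kept the highest ratio, CD8 T-like cells stayed above CD4 T-like cells, and both T-like classes stayed above the monocyte-like and NK-like classes, in all 20 values from 10 alternative settings and 2 libraries. The order of monocyte-like above NK-like cells held in 18 of the 20 and turned in both libraries when free RNA was subtracted, with 0.588 against 0.599 in the mutant and 0.445 against 0.557 in the wildtype library. Free RNA itself had a ratio of 4.05 and 3.79, above every class, and its estimated share was highest in B-like cells (12.7% and 12.7%) and monocyte-like cells (12.5% and 15.7%), against 5.82% to 8.57% in the other classes. Its part in the order of the classes was not tested beyond this subtraction.

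**Figure D1:**
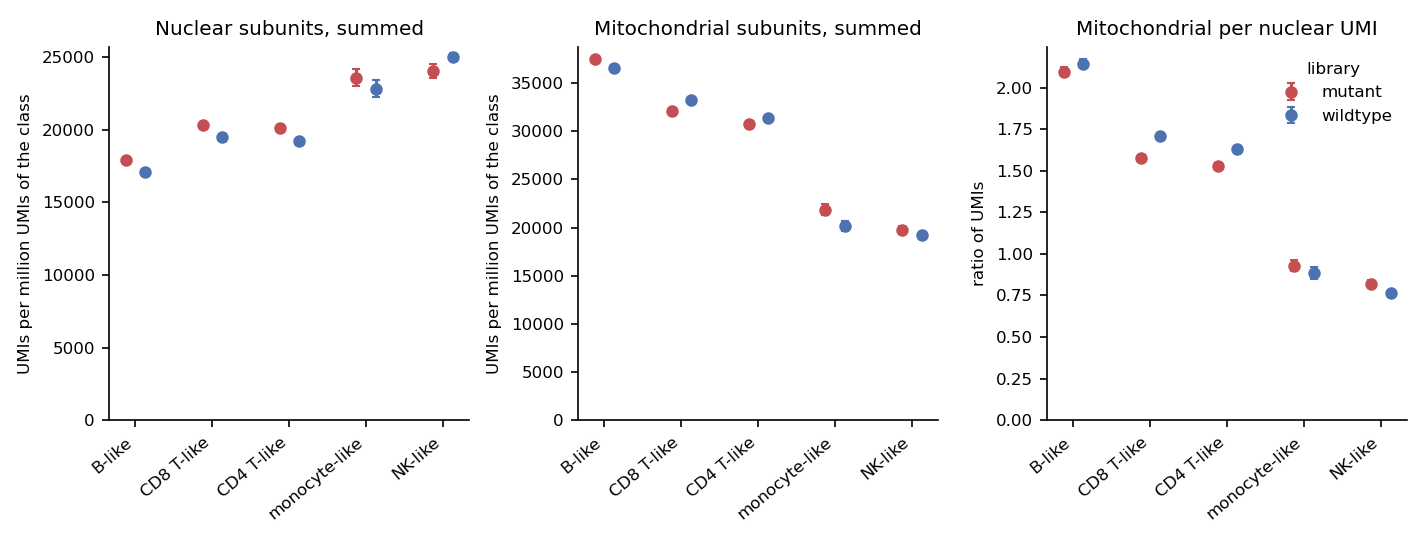
Summed UMIs of the 76 nuclear (left) and 13 mitochondrial (middle) subunit genes per 1000000 UMIs of each class, and the ratio of the 2 sums (right), for the mutant (red) and wildtype (blue) library; bars are exact 95% counting intervals. The ratio descends from 2.1 in B-like cells to 0.821 and 0.768 in NK-like cells, in the same order in both libraries.

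On the mitochondrial side, the summed level of the 13 genes was 37539.7 and 36624 CPM in B-like cells, 32104 and 33306 in CD8 T-like cells, 30748 and 31375 in CD4 T-like cells, 21874 and 20170.1 in monocyte-like cells and 19756 and 19219.5 in NK-like cells. This sum was lowest in NK-like cells. Scaled to all UMIs, B-like cells had the highest level of 10 of the 13 genes in each library, and 5 genes were lowest in NK-like cells in both libraries and another 5 lowest in monocyte-like cells in both. On the nuclear side, scaled to all UMIs, B-like cells were lowest and NK-like cells highest, at 17912 and 17077 CPM in B-like cells, 20322 and 19512 in CD8 T-like cells, 20116 and 19206 in CD4 T-like cells, 23598 and 22804 in monocyte-like cells and 24051 and 25034 in NK-like cells. On this scale 35 of the 76 nuclear subunit genes had their lowest level in B-like cells in both libraries, 23 their highest in NK-like cells and 16 their highest in monocyte-like cells.

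The nuclear order, unlike the ratio, depends on the denominator. Cytosolic ribosomal protein RNA took 39.7% and 40.5% of all UMIs in CD8 T-like cells and 36.7% and 38% in CD4 T-like cells, but 19.9% and 17.4% in NK-like cells and 17.2% and 18.2% in monocyte-like cells. With mitochondrial and ribosomal UMIs left out of the total, the nuclear sum was 35574 and 34734 per 1000000 in CD8 T-like cells, 33413 and 32638 in CD4 T-like cells, 30776 and 31025 in NK-like cells, 29281 and 28578 in monocyte-like cells and 25520.3 and 24972 in B-like cells, so that the T-like classes came first and B-like cells stayed last. The mitochondrial sum under the same scaling was 56198 and 59289 per 1000000 in CD8 T-like cells, 53485 and 53555 in B-like cells, 51072 and 53315 in CD4 T-like cells, 27141 and 25278 in monocyte-like cells and 25280.1 and 23819 in NK-like cells. Low mitochondrial RNA in NK-like and monocyte-like cells therefore held under both scalings, whereas the high nuclear level of NK-like cells did not. The first place of B-like cells in the mitochondrial sum did not hold either, since CD8 T-like cells were above them in both libraries.

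In each complex of mixed origin B-like cells were highest. Complex I had 1.26 and 1.31 mitochondrial per nuclear UMI in B-like cells and 0.504 and 0.499 in NK-like cells. Complex III, with mt-Cytb as its only mitochondrial gene, had 1.98 and 2.04 in B-like cells and 0.789 and 0.856 in NK-like cells. For complex IV the ratios were 3.49 and 3.5 against 1.24 and 1.13, and for complex V 1.84 and 1.93 against 0.75 and 0.69. T-like cells lay between these ends in every complex and library. CD4 T-like cells lay above CD8 T-like cells for complex III in both libraries, at 1.48 and 1.6 against 1.42 and 1.51. They did so for complex V in the mutant library, at 1.42 against 1.38, and lay below them otherwise. Monocyte-like cells lay above NK-like cells except for complex III, where they were below them in both libraries.

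Within classes the balance also varied by cluster. The Vpreb3-led B-like cluster had the highest mitochondrial sum of any cluster in the 5 classes, 41309 and 40636 CPM, against 36633 and 36151 in the main B-like cluster. Its ratio of mitochondrial to nuclear subunit UMIs was 2.12 and 2.35, against 2.08 and 2.11 in the main cluster. The remaining B-like cluster, led by A530040E14Rik, had 2.21 and 2.3, the highest of the B-like clusters in the mutant library. Among CD8 T-like cells the Ccl5- and Cxcr3-expressing cluster had a ratio of 1.51 and 1.61 and the larger Dapl1-expressing cluster 1.6 and 1.76. Among CD4 T-like cells the cluster led by Rora, Maf and Ctla4 had 1.36 and 1.44 and the larger Lef1-expressing cluster 1.55 and 1.66. An unnamed cluster with the leading genes Cxcr6, Cd160 and Xcl1 stood between T-like and NK-like cells, at 1.21 and 0.98. A larger unnamed cluster, of 149 mutant and 92 wildtype cells, was not part of the B-like class. Its 30 leading genes included the B cell markers Cd79b, Ms4a1 and Ly6d and the plasma cell marker Mzb1. Its ratio was 1.69 and 1.8, below the 2.1 and 2.14 of B-like cells. Outside the 5 classes, 10 and 17 cycling-like cells had the highest nuclear sum of all named groups, 29538 and 29168 CPM, and 78 and 8 erythroid-like cells the lowest, 3666 and 3335 CPM.

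Seen per cell at equal depth, with every cell thinned to 800 UMIs, the median B-like cell held 14 nuclear and 29 mitochondrial subunit UMIs in the mutant library and 14 and 28 in the wildtype library. The median NK-like cell held 19 and 15 in the mutant and 19 and 14 in the wildtype library. The quartiles of mitochondrial UMIs did not meet between these classes, at 24 to 34 in B-like cells and 11 to 18 in NK-like cells of each library. Without thinning, mitochondrial subunits made up a median of 3.6 and 3.52 percent of the UMIs of a B-like cell and 1.79 and 1.8 percent of those of an NK-like cell.

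A member was called in a class when its CPM was at least 1.5 times, or at most 1/1.5 of, the mean of the other 4 classes in both libraries. Over the 5 classes 12 values were called higher and 15 lower, and most calls fell outside the T-like classes. The shares were below those of all measured genes in every class. That background was not matched for depth, and it holds many genes with fewer UMIs than most members. In B-like cells 4 of 96 members were called higher and 3 lower, against 10.9% and 15.8% of all genes. In NK-like cells it was 5 of 90 higher and 4 lower, against 13.1% and 13.8%, and in monocyte-like cells 3 of 86 higher and 5 lower, against 17.8% and 21.4%. CD4 T-like cells had 0 of 96 higher and 1 lower, against 5.67% and 19.7%, and CD8 T-like cells 0 of 96 higher and 2 lower, against 4.83% and 21.4%. With mitochondrial and ribosomal UMIs left out of the total the split was 10 higher and 36 lower, and 1 of the 12 higher and 13 of the 15 lower calls stayed past the fold.

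**Figure D2:**
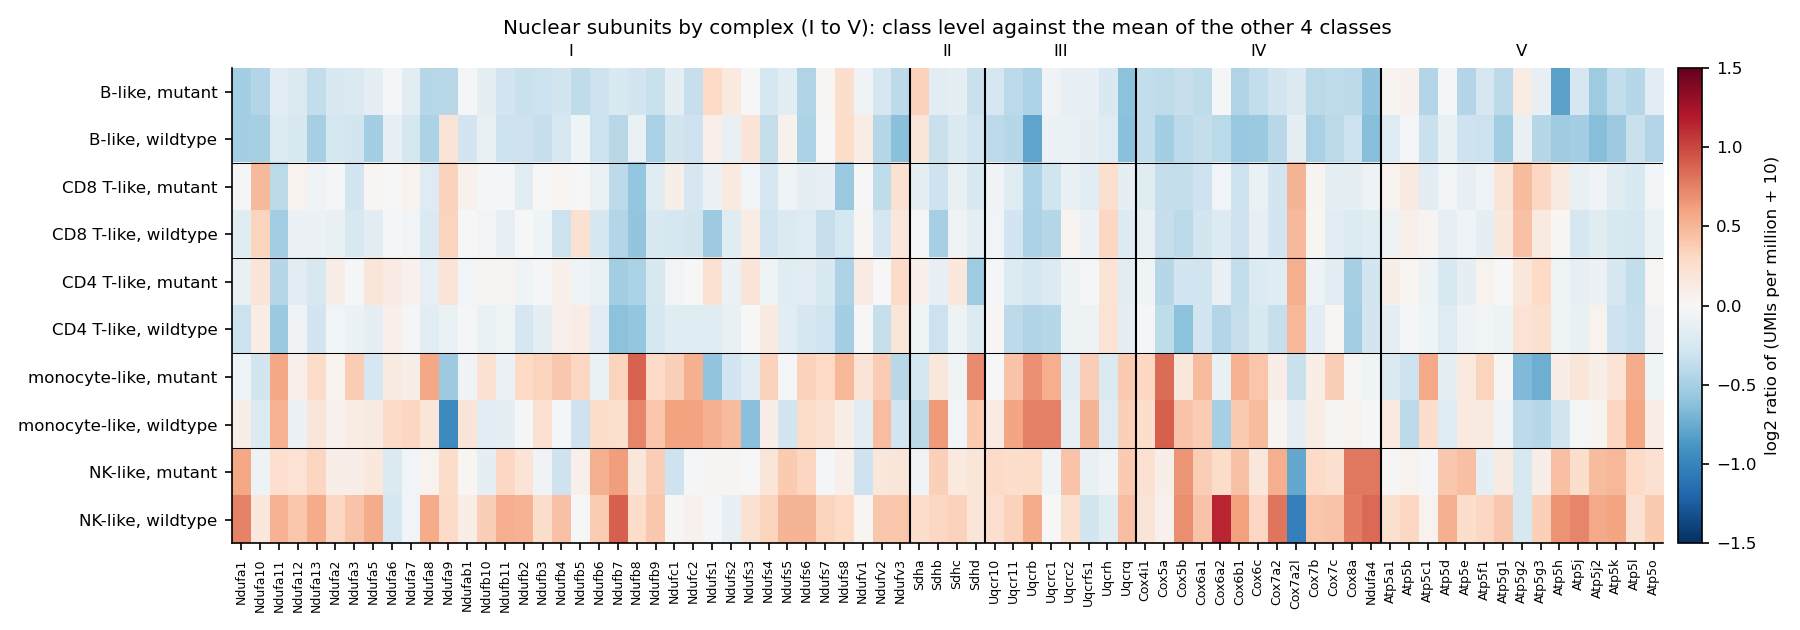
Each column is 1 of the 76 nuclear subunit genes, grouped by complex, and each row a class in 1 library; colour is log2 of the class level over the mean of the other 4 classes, with 10 CPM added to both, red for higher and blue for lower, scaled to all UMIs. B-like rows are mostly blue and NK-like rows mostly red on this scale, an order that changes for NK-like cells without mitochondrial and ribosomal UMIs.

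Complex I, the NADH dehydrogenase, has 7 mitochondrial and 36 nuclear genes among the members, 7 of the latter for its catalytic core and 29 for accessory subunits. The one with the most UMIs was mt-Nd1 (chrMT:2751-3707), at 3281 and 3397 CPM in B-like cells, 2831 and 2846 in CD8 T-like cells, 2605 and 2694 in CD4 T-like cells, 1743 and 1676 in monocyte-like cells and 1377 and 1569 in NK-like cells. It was called higher in B-like cells, at 1.53 and 1.55 times the mean of the others, and lower in NK-like cells, at 0.527 and 0.591 times. The B-like call missed the fold under the other scaling, at 1.42 and 1.45, and the NK-like call held at 0.437 and 0.465. mt-Nd4 stood at 2068 and 1934 CPM in B-like cells, 1901 and 1887 in CD8 T-like cells, 1722 and 1646 in CD4 T-like cells, 1178 and 1095 in monocyte-like cells and 1143 and 1195 in NK-like cells. mt-Nd2 stood at 921 and 967 CPM in B-like cells, 925 and 1011 in CD8 T-like cells, 808 and 827 in CD4 T-like cells, 502 and 522 in monocyte-like cells and 553 and 596 in NK-like cells. Both were low in NK-like and monocyte-like cells, and mt-Nd2 was called lower in monocyte-like cells.

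The remaining mitochondrial genes of complex I gave fewer UMIs. mt-Nd5 stood at 242 and 271 CPM in B-like cells, 249.6 and 244 in CD8 T-like cells, 190.3 and 200.5 in CD4 T-like cells, 115 and 157 in monocyte-like cells and 170.1 and 160.1 in NK-like cells. mt-Nd3, a core subunit near the site where the peripheral and membrane arms meet, stood at 259 and 256 CPM in B-like cells, 196 and 207 in CD8 T-like cells, 189 and 185 in CD4 T-like cells, 78 and 126 in monocyte-like cells and 101 and 135 in NK-like cells. It was called higher in B-like and lower in monocyte-like cells, and the higher call missed the fold under the other scaling, at 1.67 and 1.49. mt-Nd4l stood at 153 and 145 CPM in B-like cells, 142 and 143 in CD8 T-like cells, 143 and 148 in CD4 T-like cells, 85.5 and 86.3 in monocyte-like cells and 91 and 101 in NK-like cells. It was called lower in monocyte-like cells, at 0.647 and 0.642 times the others.

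mt-Nd6 (chrMT:13552-14070) is the only protein-coding gene on the light strand of mitochondrial DNA. It stood at 20.3 and 13.4 CPM in B-like cells, 10.5 and 12.4 in CD8 T-like cells, 14.9 and 11 in CD4 T-like cells, 7.43 and 0 in monocyte-like cells and 4.79 and 9.89 in NK-like cells. B-like cells were highest in both libraries and called higher, with 1.98 and 1.48 times the others under the other scaling, and the 0 of wildtype monocyte-like cells, out of 254783 UMIs, allows a level of up to 3 UMIs by a one-sided bound.

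The nuclear core of complex I summed to 737 and 719 CPM in B-like cells, 647 and 633 in CD8 T-like cells, 686 and 619.7 in CD4 T-like cells, 791 and 789 in monocyte-like cells and 731 and 812 in NK-like cells. The accessory subunits summed to 4776 and 4609 CPM in B-like cells, 5352 and 5089.6 in CD8 T-like cells, 5399.5 and 5089.8 in CD4 T-like cells, 6309 and 6005 in monocyte-like cells and 6094 and 6742 in NK-like cells. Per core UMI there were 6.48 and 6.41 accessory UMIs in B-like cells, the lowest in both libraries. The other classes lay close together, at 8.27 and 8.05 in CD8 T-like cells, 7.87 and 8.21 in CD4 T-like cells, 7.97 and 7.61 in monocyte-like cells and 8.34 and 8.3 in NK-like cells. In the wildtype library the B-like interval (6.05 to 6.81) overlapped that of monocyte-like cells (6.57 to 8.86). Ndufa6, an accessory subunit of the LYR family and the nuclear complex I gene with the highest mean level, stood at 417 and 400.1 CPM in B-like cells, 422 and 424 in CD8 T-like cells, 455 and 449 in CD4 T-like cells, 457 and 506 in monocyte-like cells and 374 and 373 in NK-like cells. Ndufs8, an iron-sulfur core subunit named after its values were seen, was higher in B-like than in T-like cells, at 144 and 135 CPM against 87 and 97.4 in CD8 T-like cells and 92.5 and 83.1 in CD4 T-like cells. Its highest level was not in B-like cells but in monocyte-like cells in the mutant and in NK-like cells in the wildtype library.

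Of the accessory subunits 4 were called in a class. Ndufa1 was higher in NK-like cells, at 323 and 324 CPM or 1.52 and 1.71 times the other classes, and Ndufb7 likewise at 347 and 404 CPM or 1.56 and 1.91 times. Ndufb8 was higher in monocyte-like cells, at 305 and 271 CPM, and lower in CD8 T-like cells, at 133 and 126 CPM. Scaled without mitochondrial and ribosomal UMIs, none of these higher calls passed the fold in both libraries, and Ndufb8 in CD8 T-like cells was at 0.841 and 0.84 times the others. Ndufa9, a subunit of the peripheral arm, was lower in monocyte-like cells, at 44.6 and 35.3 CPM, and stayed so under the other scaling, at 0.515 and 0.37 times.

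The 7 Ndufaf assembly factors, which help build complex I without staying in it, summed to 125 and 136 CPM in B-like cells, 131 and 120 in CD8 T-like cells, 115 and 116 in CD4 T-like cells, 141 and 145 in monocyte-like cells and 151 and 168 in NK-like cells. Ndufaf7, a methyltransferase that acts on a core subunit during assembly, stood apart, at 13.2 and 15.6 CPM in B-like cells, 15.1 and 19.2 in CD8 T-like cells, 10.8 and 13.4 in CD4 T-like cells, 40.9 and 58.9 in monocyte-like cells and 31.1 and 34 in NK-like cells. It was called lower in both T-like classes and in B-like cells, and monocyte-like cells were highest on 11 and 15 UMIs. Under the other scaling the calls of CD4 T-like and B-like cells held and that of CD8 T-like cells did not, at 0.828 and 0.847 times the others.

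Complex II, succinate dehydrogenase, is the one complex encoded by the nucleus alone, and also acts in the citric acid cycle. Its 4 genes summed to 452 and 407 CPM in B-like cells, 398 and 387 in CD8 T-like cells, 432 and 398 in CD4 T-like cells, 494 and 518 in monocyte-like cells and 508 and 529 in NK-like cells. Sdhb, the iron-sulfur subunit, stood at 165 and 160.4 CPM in B-like cells, 151 and 145 in CD8 T-like cells, 169 and 162 in CD4 T-like cells, 201 and 279 in monocyte-like cells and 223 and 234 in NK-like cells. Sdha, the flavoprotein, also named after its values were seen, had its highest mutant level in B-like cells, at 176 and 146 CPM against 139 and 153 in NK-like cells, and none of the 4 genes was called in a class.

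Complex III passes electrons from ubiquinol to cytochrome c, and its mitochondrial gene mt-Cytb encodes the cytochrome b core. mt-Cytb stood at 4061 and 3869.9 CPM in B-like cells, 3306 and 3372 in CD8 T-like cells, 3533 and 3535 in CD4 T-like cells, 2073 and 1864 in monocyte-like cells and 2069.5 and 2143 in NK-like cells. This gene was called lower in monocyte-like cells at 0.639 and 0.577 times the others. CD4 T-like cells were above CD8 T-like cells for this gene in both libraries, whereas for the summed mitochondrial genes they were below.

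Among the 8 nuclear genes of complex III, Uqcrh, the hinge protein of cytochrome c1, had the highest mean level and was highest in T-like cells, at 636 and 618 CPM in B-like cells, 828 and 815 in CD8 T-like cells, 809.9 and 774 in CD4 T-like cells, 639 and 616 in monocyte-like cells and 704 and 619 in NK-like cells. Uqcrb was called higher in monocyte-like cells, at 502 and 522 CPM against 263 and 263 in CD8 T-like cells. Uqcrq, a small subunit bound to cytochrome b, was called lower in B-like cells, at 194 and 174 CPM, and held under the other scaling at 0.629 and 0.639 times the other classes. For Uqcrb the other scaling gave 1.34 and 1.44 times, short of the fold.

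Complex IV, cytochrome c oxidase, takes its 3 catalytic core subunits from mitochondrial DNA. mt-Co1, which holds the site of oxygen reduction, stood at 6325 and 5841 CPM in B-like cells, 5206 and 5295 in CD8 T-like cells, 4762 and 4712 in CD4 T-like cells, 3794 and 3262 in monocyte-like cells and 3379.7 and 2779.7 in NK-like cells. mt-Co2, where cytochrome c docks, stood at 3422 and 3376 CPM in B-like cells, 2801 and 2830 in CD8 T-like cells, 2677 and 2671 in CD4 T-like cells, 2103 and 2045 in monocyte-like cells and 1828 and 1832 in NK-like cells. mt-Co3 stood at 7844 and 7618 CPM in B-like cells, 6609 and 7054 in CD8 T-like cells, 6318 and 6622 in CD4 T-like cells, 4273 and 4149 in monocyte-like cells and 4117 and 3916 in NK-like cells. The 3 genes shared the order of classes of the mitochondrial sum, and mt-Co3 was called lower in NK-like cells at 0.658 and 0.616 times the others.

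**Figure D3:**
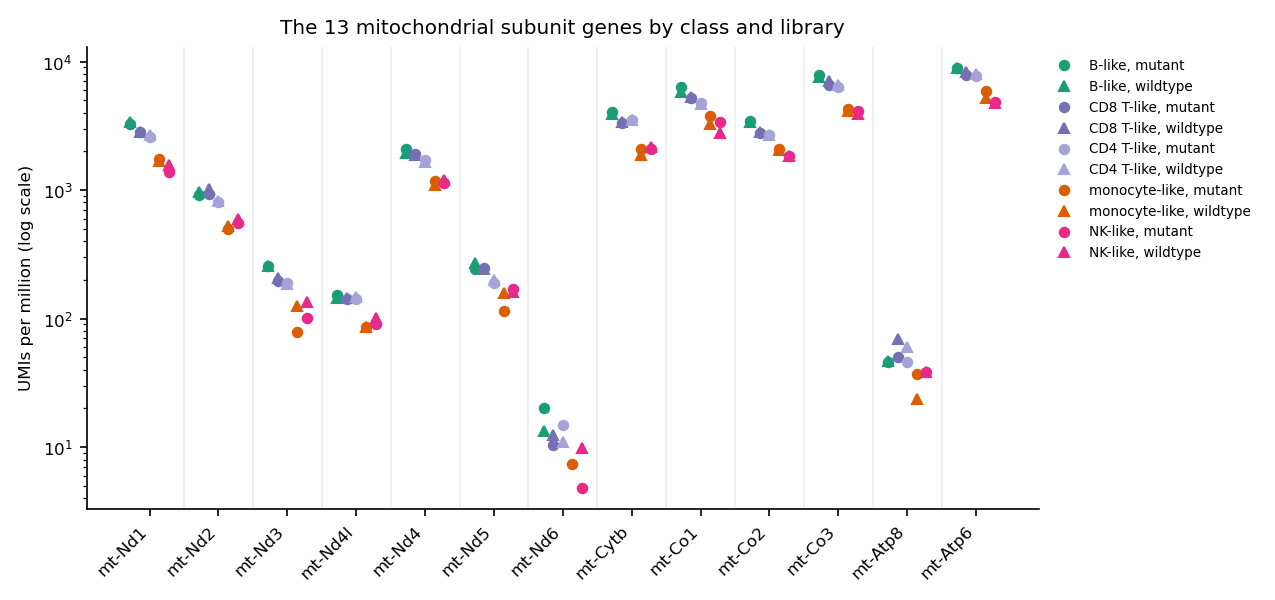
Levels of the 13 mitochondrial genes in CPM on a log scale, with colour for the class, circles for the mutant and triangles for the wildtype library; the wildtype monocyte-like value of mt-Nd6 is 0 and not drawn. For the large genes the B-like and T-like points lie above those of monocyte-like and NK-like cells, while the libraries lie close together.

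The nuclear subunits of complex IV surround this core, and several exist as tissue-specific paralogues. Cox4i1, the ubiquitous form of subunit 4, stood at 863 and 813 CPM in B-like cells, 964 and 943 in CD8 T-like cells, 1030.2 and 984 in CD4 T-like cells, 1267 and 1162 in monocyte-like cells and 1214 and 1113 in NK-like cells. Its hypoxia-linked paralogue Cox4i2 had 1 UMI in all. Cox5a was called higher in monocyte-like cells, at 239 and 202 CPM in B-like cells, 242 and 223 in CD8 T-like cells, 231 and 219 in CD4 T-like cells, 464 and 439.6 in monocyte-like cells and 314 and 284 in NK-like cells. Cox5b was called higher in NK-like cells, at 322 and 325 CPM in B-like cells, 318 and 322 in CD8 T-like cells, 332 and 282 in CD4 T-like cells, 431 and 514 in monocyte-like cells and 563 and 593 in NK-like cells. Cox8a was also called higher in NK-like cells, at 569.8 and 592 CPM in B-like cells, 663 and 631 in CD8 T-like cells, 538 and 530.1 in CD4 T-like cells, 725 and 734 in monocyte-like cells and 1087 and 1069 in NK-like cells. Under the other scaling the NK-like folds were 1.37 and 1.35 for Cox5b and 1.48 and 1.39 for Cox8a, and the monocyte-like fold of Cox5a was 1.49 and 1.56, all short of 1.5 in at least 1 library.

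Ndufa4, once placed in complex I and now known as a subunit of complex IV, stood at 307 and 290 CPM in B-like cells, 418 and 383 in CD8 T-like cells, 369.8 and 361 in CD4 T-like cells, 419.9 and 420 in monocyte-like cells and 663 and 665 in NK-like cells. NK-like cells were the highest and B-like cells the lowest in both libraries. The B-like call held under the other scaling, at 0.645 and 0.641 times, and the NK-like value was 1.47 and 1.47 times. Ndufa4l2, its hypoxia-induced paralogue, had 0 UMIs.

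Cox7a2l had its lowest CPM in NK-like cells in both libraries. The mitochondrial genes mt-Co1, mt-Co2 and mt-Co3 shared this, and the other 12 nuclear genes of complex IV did not. Cox7a2l encodes a protein of the Cox7a family known for its part in joining complexes III and IV into supercomplexes, and lies at chr17:83501918-83517330 (GRCm38). Its level was 541 and 579 CPM in B-like cells, 805 and 812 in CD8 T-like cells, 819.5 and 818 in CD4 T-like cells, 505 and 581 in monocyte-like cells and 388 and 337 in NK-like cells. T-like cells were highest and NK-like cells lowest. Cox7a2, the widely expressed subunit of complex IV itself at chr9:79755361-79759878, was highest in NK-like cells instead, at 299 and 265 CPM in B-like cells, 297 and 287 in CD8 T-like cells, 317 and 275 in CD4 T-like cells, 372 and 345 in monocyte-like cells and 474 and 517 in NK-like cells. Per Cox7a2 UMI there were 2.71 (2.49 to 2.96) Cox7a2l UMIs in mutant and 2.83 (2.64 to 3.04) in wildtype CD8 T-like cells, but 0.818 (0.661 to 1.01) and 0.651 (0.583 to 0.726) in NK-like cells. B-like cells had 1.81 and 2.18 and monocyte-like cells 1.36 and 1.68. Over 10 alternative settings the NK-like ratio ranged from 0.757 to 0.892 in the mutant and 0.563 to 0.706 in the wildtype library, below every value of CD8 T-like cells (2.5 to 3.13 and 2.66 to 3.16). The third member, the heart and muscle form Cox7a1, had 11 UMIs in all. Supercomplexes were not measured, and the part of Cox7a2l in joining them was not tested in these mice.

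Cox6a1, the common form of subunit 6a, stood at 408 and 390 CPM in B-like cells, 425 and 408 in CD8 T-like cells, 429 and 405 in CD4 T-like cells, 658 and 589 in monocyte-like cells and 623 and 603 in NK-like cells. Cox6a2, the form known from heart and skeletal muscle, was concentrated in a few cells. In the 5 classes it reached 13.6 CPM in wildtype NK-like cells (22 UMIs in 8 of 886 cells) and 2.4 CPM in mutant NK-like cells (1 UMI), and at most 1.84 CPM elsewhere. Most of its UMIs lay in 1 cluster, called platelet-like from Ppbp and Pf4 but with Retnla and Cd209a also among its leading genes. The plasmacytoid dendritic markers Siglech and Cd209d and the monocyte marker Lyz2 were among its 30 leading genes too. The name therefore need not hold for every cell of the cluster. Cox6a2 had 63 UMIs in 14 of its 29 wildtype cells and 12 UMIs in 4 of its 61 mutant cells. These made 537 and 57.1 CPM in the wildtype and mutant library. Which kind of cell in the cluster held Cox6a2 was not tested. Cox6b1 stood at 379.8 and 335 CPM in B-like cells, 410.1 and 389 in CD8 T-like cells, 399.5 and 382 in CD4 T-like cells, 658 and 581 in monocyte-like cells and 632 and 651 in NK-like cells. Its testis-linked paralogue Cox6b2 had 44 UMIs.

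Complex V, the ATP synthase, takes mt-Atp6 and mt-Atp8 of its membrane part from mitochondrial DNA. mt-Atp6, which forms the proton channel with the c-ring, was at 8899.5 and 8889.6 CPM in B-like cells, 7877 and 8335 in CD8 T-like cells, 7739 and 8063 in CD4 T-like cells, 5886 and 5165 in monocyte-like cells and 4884 and 4744 in NK-like cells. It was called lower in NK-like cells. mt-Atp8 was at 45.6 and 46.4 CPM in B-like cells, 50.2 and 70 in CD8 T-like cells, 46.1 and 60.4 in CD4 T-like cells, 37.2 and 23.5 in monocyte-like cells and 38.3 and 38.3 in NK-like cells, on 1115 UMIs over all cells against 162949 of mt-Atp6, although the 2 genes share 1 bicistronic messenger RNA. Their reading frames overlap at chrMT:7927-7969 (GRCm38) over 43 bases, and a tag at the 3' end of the shared messenger lies in mt-Atp6. The same holds for mt-Nd4l and mt-Nd4, which overlap at chrMT:10167-10173 over 7 bases, so the counts of mt-Atp8 and mt-Nd4l need not measure their shared messengers. Where the tags of these genes lay was not tested. The shared stretches are shown because both genes of a pair hold them, read 5' to 3' in the sense direction of the genes, with the start codon of the downstream and the stop codon of the upstream gene in capitals:
mt-Atp8 and mt-Atp6: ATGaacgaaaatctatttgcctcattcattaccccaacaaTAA
mt-Nd4l and mt-Nd4: ATGcTAA

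Among the 15 nuclear genes of complex V, Atp5l, the g subunit of the membrane part, had the highest mean level, at 645 and 628 CPM in B-like cells, 729.5 and 658 in CD8 T-like cells, 672 and 625 in CD4 T-like cells, 1118 and 1040.1 in monocyte-like cells and 977 and 865 in NK-like cells. None of the 15 was called in a class. The 2 factors with related names were not counted as complex V subunits. Of these, Atp5sl, whose RefSeq symbol is Dmac2, was called higher in B-like cells. It was at 64.2 and 53.1 CPM in B-like cells, 22.2 and 25.5 in CD8 T-like cells, 27.1 and 19.2 in CD4 T-like cells, 3.72 and 23.5 in monocyte-like cells and 16.8 and 26 in NK-like cells. The B-like call of Atp5sl was the one higher call that held under the other scaling, at 3.33 and 2.22 times the other classes. Atp5s had 13 and 8 UMIs in B-like cells and 0 in monocyte-like cells, too few to compare.

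The c subunit, whose ring turns with proton flow, is encoded by Atp5g1, Atp5g2 and Atp5g3, which give the same mature protein. Their shares of the summed c-subunit UMIs differed between classes. Atp5g2 made up 49.6% and 49.9% in B-like cells and 46.6% and 47.9% in CD8 T-like cells, against 38.5% and 35.5% in NK-like cells and 36.9% and 41% in monocyte-like cells. Atp5g1 took 32.6% and 33% in B-like cells and 35.6% and 34.9% in CD8 T-like cells, but 42.3% and 43.4% in NK-like cells and 49% and 42.3% in monocyte-like cells, and Atp5g3 stayed between 14.1% and 21.1%. Per Atp5g1 UMI there were 1.52 (1.33 to 1.73) and 1.51 (1.32 to 1.74) Atp5g2 UMIs in B-like cells and 0.909 (0.696 to 1.19) and 0.82 (0.721 to 0.931) in NK-like cells, and the intervals of the 2 classes did not overlap in either library.

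**Figure D4:**
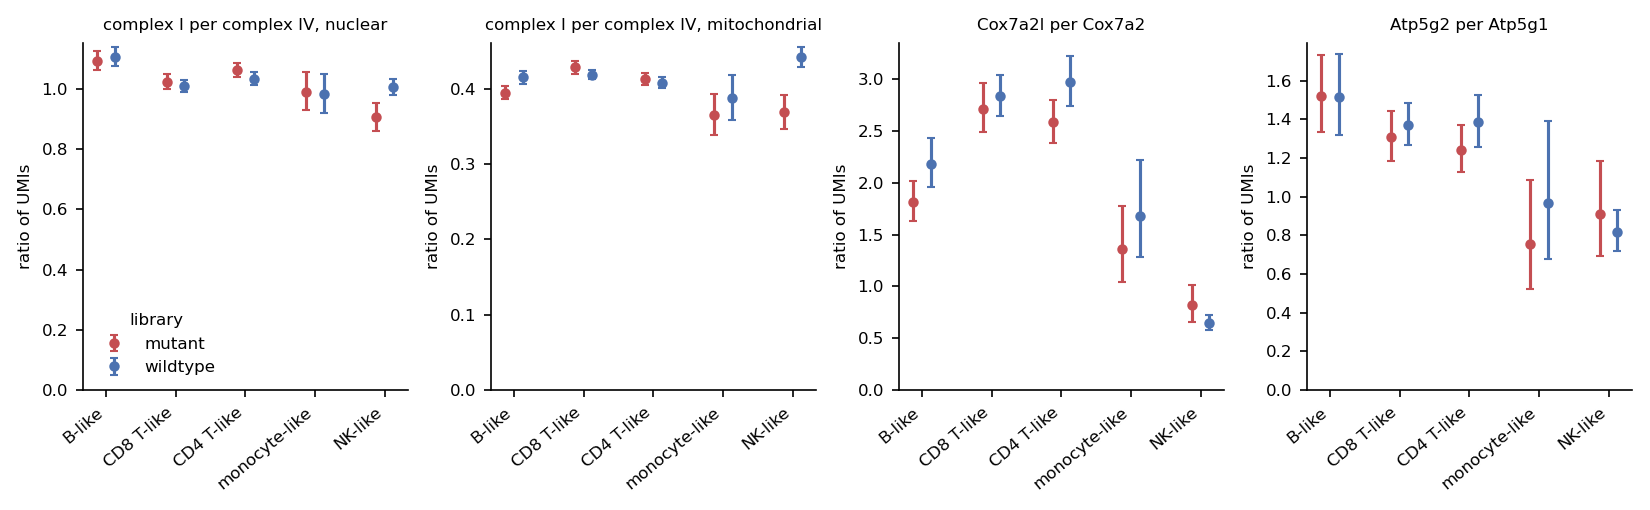
Ratios of UMIs by class for the mutant (red) and wildtype (blue) library, with exact 95% counting intervals: nuclear complex I over nuclear complex IV, mitochondrial complex I over mitochondrial complex IV, Cox7a2l over Cox7a2, and Atp5g2 over Atp5g1. Cox7a2l over Cox7a2 is lowest in NK-like cells, and the mutant and wildtype intervals of both complex ratios are apart in NK-like cells, as are those of the mitochondrial complex ratio in B-like cells.

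The promoters of the c-subunit genes are shown because their transcripts, for 1 protein, were used to different degrees by class. The windows are RefSeq's for GRCm38.p6, 250 bases before to 50 after the start, on the gene's strand: Atp5g1 at chr11:96075582-96075881, Atp5g2 at chr15:102670998-102671297 and Atp5g3 at chr2:73911277-73911576, all on the minus strand. Capitals mark matches on either strand to GCGCNTGCG, the core bound by NRF1 (a known activator of respiratory chain genes), CCGGAAG (the ETS core, which GABPA binds), AAGATGGCG (YY1) or CCAAT:
Atp5g1: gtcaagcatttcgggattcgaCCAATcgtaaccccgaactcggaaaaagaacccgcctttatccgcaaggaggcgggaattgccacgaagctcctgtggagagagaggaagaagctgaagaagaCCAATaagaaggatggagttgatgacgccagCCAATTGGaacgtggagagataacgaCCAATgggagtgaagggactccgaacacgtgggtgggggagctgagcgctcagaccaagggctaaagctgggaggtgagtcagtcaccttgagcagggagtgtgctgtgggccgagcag
Atp5g2: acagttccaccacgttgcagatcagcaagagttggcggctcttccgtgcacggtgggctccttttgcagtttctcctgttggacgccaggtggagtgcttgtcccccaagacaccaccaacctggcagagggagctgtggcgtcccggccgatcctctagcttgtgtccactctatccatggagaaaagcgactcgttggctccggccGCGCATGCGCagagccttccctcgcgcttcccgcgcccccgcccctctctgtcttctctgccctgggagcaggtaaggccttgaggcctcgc
Atp5g3: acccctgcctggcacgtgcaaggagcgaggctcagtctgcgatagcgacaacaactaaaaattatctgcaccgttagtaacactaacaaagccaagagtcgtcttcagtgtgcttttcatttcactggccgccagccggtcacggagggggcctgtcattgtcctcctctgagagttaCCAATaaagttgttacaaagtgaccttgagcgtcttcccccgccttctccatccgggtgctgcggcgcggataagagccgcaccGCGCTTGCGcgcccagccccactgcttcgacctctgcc

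Atp5g1 held 5 CCAAT matches and no match to the other motifs, Atp5g2 matched the NRF1 core at 2 overlapping positions and no other motif, and Atp5g3 held 1 NRF1 and 1 CCAAT match. Of the 85 nuclear members 72 were matched to a RefSeq promoter, with 78 windows. The NRF1 core was in 28 of the 78 windows (35.9%), against 6.31% of all 32851 windows of the same length. A form of the NRF1 core 1 base longer, searched first, was in 20 of the 78 windows (25.6%), against 4.6% of all windows, and the shorter form was chosen after that count was seen. The ETS core was in 21.8% against 8.86%, the YY1 motif in 11.5% against 1.4%, and CCAAT in 41% against 37.4%. By complex, the NRF1 core was in 10 of 34 windows of complex I, 3 of 5 of complex III, 1 of 10 of complex IV and 8 of 17 of complex V. A match describes the letters of the window and is not evidence of binding. The members passed a minimum of UMIs and the windows of all genes did not. The shares were not matched for expression or base composition, so an excess need not be particular to the members.

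Between the libraries, differences in the members were small. The nuclear sum of the mutant over the wildtype library was 1.05 (1.04 to 1.06) in CD4 T-like cells, 1.04 (1.03 to 1.05) in CD8 T-like cells, 1.05 (1.03 to 1.07) in B-like cells, 1.03 (0.999 to 1.07) in monocyte-like cells and 0.961 (0.94 to 0.982) in NK-like cells. Cytosolic ribosomal protein RNA moved the other way in all of these classes, at 0.966, 0.98, 0.932, 0.947 and 1.14 in the same order. Scaled without mitochondrial and ribosomal UMIs, the nuclear ratios came to 1.02, 1.02, 1.02, 1.02 and 0.992. The mitochondrial ratio was 0.98 (0.971 to 0.989) in CD4 T-like cells, 0.964 (0.955 to 0.973) in CD8 T-like cells, 1.02 (1.01 to 1.04) in B-like cells, 1.03 (1.0031 to 1.05) in NK-like cells and 1.08 (1.04 to 1.13) in monocyte-like cells. The B-like and monocyte-like values turned below 1 under some settings, to 0.999 in B-like cells under the other scaling and to 0.884 in monocyte-like cells without doublet removal. The monocyte-like class held 93 mutant and 98 wildtype cells here, and 121 and 128 without doublet removal. In this class the summed platelet markers were at 1211 and 318 CPM (7 of 8 seen in each library, Tubb1 at 0). NK cell markers were at 111 and 639.8 CPM (7 and 11 of 12 seen, with Ncr1, Klrb1c, Klre1, Klra9 and Prf1 at 0 in the mutant library and Klra8 at 0 in the wildtype library). B cell markers were at 5295 and 5919 CPM. The part of these markers was not tested. The B-like class held 168 of 1111 mutant and 51 of 1025 wildtype cells of the Vpreb3-led cluster with the high mitochondrial sum. Within the largest B-like cluster the mitochondrial ratio was 1.01.

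The balance of the 2 genomes separated the libraries in opposite directions in T-like and NK-like cells. The mutant value of mitochondrial per nuclear UMIs was 0.936 of the wildtype value in CD4 T-like cells and 0.925 in CD8 T-like cells, 0.977 in B-like cells, 1.07 in NK-like cells and 1.05 in monocyte-like cells. Over the 10 alternative settings these ranged from 0.908 to 0.946, 0.91 to 0.948, 0.954 to 0.991, 1.04 to 1.08 and, on both sides of 1, 0.856 to 1.32, in the same order. With 1 library per genotype the difference between classes was not tested.

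In NK-like cells the nuclear genes of complex I stood lower in the mutant library than those of complexes III and IV did. Its 36 nuclear genes summed to 6824 and 7554 CPM, a ratio of 0.903 (0.867 to 0.941), and 30 of them were below 1, beside 2611 of the 4641 genes measured. Its 7 mitochondrial genes gave 0.913 (0.862 to 0.967). The nuclear genes of complex IV gave 1.0022 (0.963 to 1.04), those of complex III 1.05 (0.979 to 1.12), those of complex V 0.947 (0.908 to 0.988) and those of complex II 0.96 (0.822 to 1.12), the last 2 with intervals that overlap that of complex I. The complex III sum leaves out Cyc1, which the symbol rule does not include and which was called lower in mutant NK-like cells, as given below. Among mitochondrial genes complex IV gave 1.09 (1.06 to 1.13), complex V 1.03 (0.98 to 1.08) and mt-Cytb of complex III 0.965 (0.895 to 1.04), which overlaps complex I. All these ratios, and the count of 30, are scaled to all UMIs. The nuclear sum of NK-like cells was 0.961 on this scale and 0.992 without mitochondrial and ribosomal UMIs. Ratios per complex on the latter scale are not given. The genes of complex IV did not move alike. Of the mitochondrial UMIs of NK-like cells, mt-Co1 made up 17.1% and 14.5%, mt-Co2 9.25% and 9.53% and mt-Co3 20.8% and 20.4%. The share of mt-Co1 was also higher in the mutant library in every other class and in free RNA (16.5% and 14.8%). Complex I over complex IV, which does not depend on scaling, was 0.906 (0.861 to 0.954) in the mutant and 1.01 (0.98 to 1.03) in the wildtype library for nuclear genes, and 0.369 (0.347 to 0.392) and 0.442 (0.428 to 0.455) for mitochondrial genes. The mutant value was thus 0.901 and 0.835 of the wildtype value, and it ranged from 0.86 to 0.915 and 0.782 to 0.861 over 10 alternative settings. In the other 4 classes the same quotient lay between 0.988 and 1.03 for nuclear and 0.941 and 1.02 for mitochondrial genes. Mutant NK-like cells were 193 against 886 and had the largest red cell marker level of the 5 classes, and its part was not tested.

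Single members were called between the libraries when the ratio was at most 0.8 or at least the inverse of 0.8, its 95% interval excluded 1, and the class held at least 50 UMIs of the gene. Of all members 5 were called higher and 7 lower over the 5 classes, shares no larger than those of all measured genes. In CD4 T-like cells 1 of 95 members was called higher and 1 lower, against 3.55% and 2.33% of all genes, and in CD8 T-like cells 2 of 95 higher and 1 lower, against 3.74% and 3.13%. B-like cells had 0 of 93 higher and 1 lower, against 5.16% and 2.7%. NK-like cells had 0 of 91 higher and 4 lower, against 3% and 4.74%, and monocyte-like cells 2 of 79 higher and 0 lower, against 5.63% and 4.48%. These shares are not matched for depth. Among the 1350 genes with the most UMIs in CD4 T-like cells, 1 of 80 members was higher and 0 lower (1.63% and 1.33% of all). In CD8 T-like cells, among 1392 genes, it was 1 of 82 and 0 (2.37% and 1.15%). B-like cells had 0 of 60 and 0 among 952 (3.36% and 1.68%). NK-like cells had 0 of 46 and 2 among 580 (4.48% and 7.76%). Monocyte-like cells had 0 of 9 and 0 among 162 (7.41% and 3.7%).

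The 4 members called lower in mutant NK-like cells came from complexes I and V. Ndufb4, an accessory subunit at chr16:37647170-37654453, was at 132 CPM (55 UMIs) in the mutant and 205 CPM (331 UMIs) in the wildtype library, with a mutant to wildtype ratio of 0.644 (95% interval 0.475 to 0.858). Ndufb10, another accessory subunit at chr17:24722060-24724478, was at 187 CPM (78 UMIs) in the mutant and 239.9 CPM (388 UMIs) in the wildtype library, with a mutant to wildtype ratio of 0.779 (95% interval 0.603 to 0.996). Both are parts of the membrane arm of complex I. Atp5j, the coupling factor 6 of the ATP synthase stalk, was at 459.9 CPM (192 UMIs) in the mutant and 581 CPM (940 UMIs) in the wildtype library, with a mutant to wildtype ratio of 0.791 (95% interval 0.674 to 0.925). Atp5f1, the b subunit of the same stalk, was at 254 CPM (106 UMIs) in the mutant and 324 CPM (524 UMIs) in the wildtype library, with a mutant to wildtype ratio of 0.784 (95% interval 0.63 to 0.967).

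In the T-like classes, counts of mt-Atp8, which need not measure its shared messenger, were lower in the mutant library. The gene was at 50.2 CPM (120 UMIs) in the mutant and 70 CPM (266 UMIs) in the wildtype library in CD8 T-like cells, with a mutant to wildtype ratio of 0.717 (95% interval 0.573 to 0.893). In CD4 T-like cells it was at 46.1 CPM (124 UMIs) in the mutant and 60.4 CPM (176 UMIs) in the wildtype library, with a mutant to wildtype ratio of 0.763 (95% interval 0.601 to 0.965). Its neighbour mt-Atp6 did not share the size of this difference, with a mutant to wildtype ratio of 0.945 (95% interval 0.928 to 0.962) in CD8 T-like cells and a mutant to wildtype ratio of 0.96 (95% interval 0.942 to 0.978) in CD4 T-like cells. In B-like cells mt-Atp8 was at 45.6 and 46.4 CPM and in NK-like cells at 38.3 and 38.3 CPM, close between the libraries, while in monocyte-like cells it was at 37.2 and 23.5 CPM on few UMIs.

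In all, 3 nuclear genes of complex I or its assembly were called higher in T-like cells of the mutant library. Ndufv2, an iron-sulfur core subunit at chr17:66078638-66101559, was at 135 CPM (363 UMIs) in the mutant and 102 CPM (296 UMIs) in the wildtype library in CD4 T-like cells, with a mutant to wildtype ratio of 1.33 (95% interval 1.14 to 1.55). In CD8 T-like cells it was at 106 and 108 CPM, with no such difference. Ndufc1, a small membrane-arm subunit, was at 134 CPM (320 UMIs) in the mutant and 99.7 CPM (379 UMIs) in the wildtype library in CD8 T-like cells, with a mutant to wildtype ratio of 1.34 (95% interval 1.15 to 1.56), and at 125 and 105 CPM in CD4 T-like cells. Ndufaf2, an assembly factor, was at 19.6 CPM (47 UMIs) in the mutant and 10 CPM (38 UMIs) in the wildtype library in CD8 T-like cells, with a mutant to wildtype ratio of 1.97 (95% interval 1.254 to 3.1) on few UMIs.

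Ndufa9 was the single member called in B-like cells, at 48.9 CPM (89 UMIs) in the mutant and 78.2 CPM (140 UMIs) in the wildtype library, with a mutant to wildtype ratio of 0.625 (95% interval 0.473 to 0.82). In CD4 T-like cells its levels had the other order, at 73.6 and 65.2 CPM. In monocyte-like cells the accessory subunit Ndufb5 was at 271 CPM (73 UMIs) in the mutant and 165 CPM (42 UMIs) in the wildtype library, with a mutant to wildtype ratio of 1.65 (95% interval 1.11 to 2.47), and Cox7c, a small subunit of complex IV, was at 706 CPM (190 UMIs) in the mutant and 557 CPM (142 UMIs) in the wildtype library, with a mutant to wildtype ratio of 1.27 (95% interval 1.01 to 1.59). No member was called in more than 1 class except mt-Atp8. Over 11 alternative settings the ratio of Ndufv2 ranged from 1.12 to 1.81 and that of Cox7c from 1.08 to 1.88, so that both fell short of the fold under at least 1 of them. The same held for Ndufb10 in NK-like cells, from 0.736 to 0.901, Atp5j, from 0.743 to 0.837, Atp5f1, from 0.721 to 0.831, and mt-Atp8 in CD4 T-like cells, from 0.721 to 0.908. The ratios of Ndufb4, Ndufa9, Ndufb5, Ndufc1, Ndufaf2 and, in CD8 T-like cells, mt-Atp8 stayed past the fold in all 11.

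**Figure D5:**
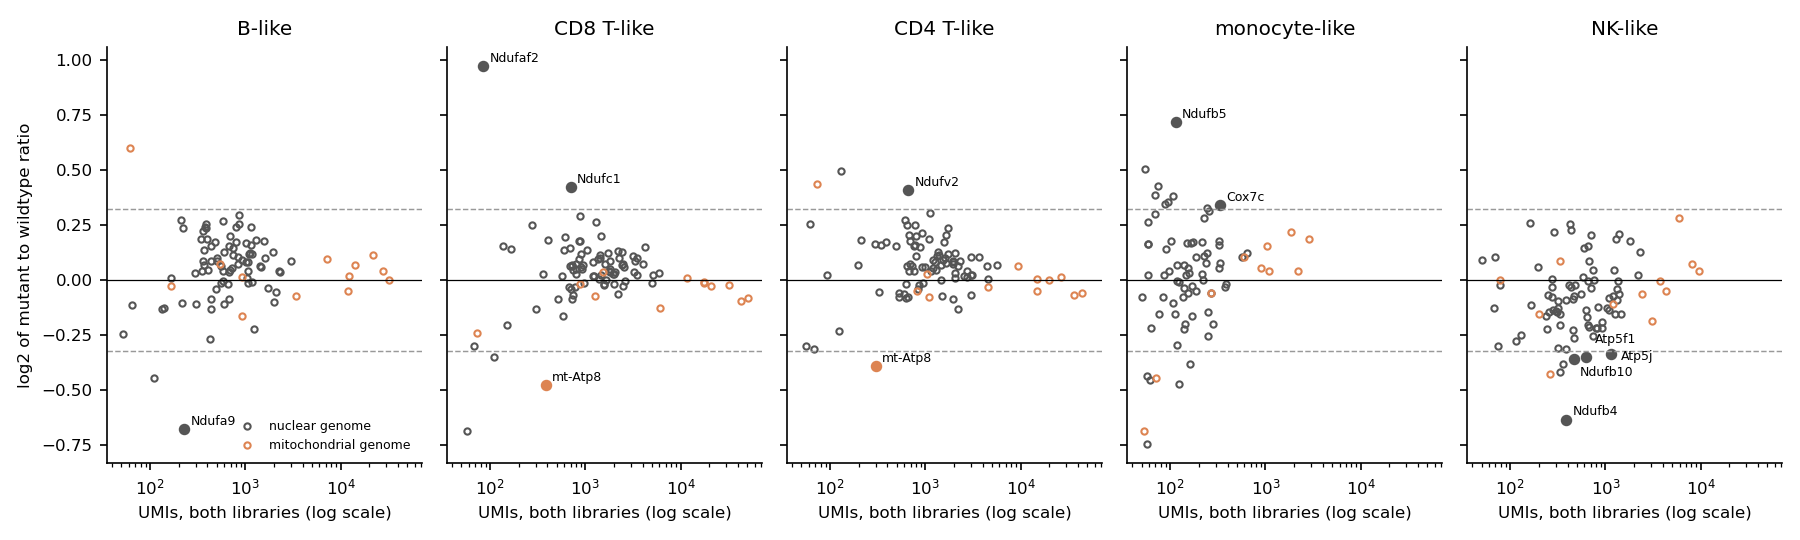
Each point is a member with at least 50 UMIs in the class: its UMIs in both libraries on a log axis against log2 of the mutant to wildtype ratio, in grey for the nuclear and orange for the mitochondrial genome. Dashed lines mark ratios of 0.8 and its inverse, and the 12 called values are filled and named. Most points lie between the lines, and the open points outside them have intervals that include 1.

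Related pathway lists were read the same way, against the shares of all measured genes just given. Of 16 citric acid cycle genes, 1 of 15 measured was called higher in B-like cells (Cs, citrate synthase), where 5.16% of all genes were, and none elsewhere, with a median log2 ratio of -0.13 in NK-like cells and 0.18 in B-like cells, where the medians of all measured genes were -0.05 and 0.04. Of 17 glycolysis genes, Hk1 and Tpi1 were called lower among 13 measured in B-like cells (2.7% of all genes), Tpi1 lower among 15 in CD8 T-like cells (3.13%) and Gpi1 higher among 12 in NK-like cells (3%). Cyc1, the cytochrome c1 of complex III, which the symbol rule leaves out, was called lower in mutant NK-like cells, at 69.5 CPM (29 UMIs) against 119.9 CPM (194 UMIs) in the wildtype library. Tfam, which packages and helps transcribe mitochondrial DNA, was also called lower there, where 4.74% of all genes were, at 21.6 CPM (9 UMIs) against 51.3 CPM (83 UMIs), among 3 measured genes for mitochondrial DNA expression. Of 77 mitochondrial ribosomal protein genes 3 of 74 were called higher in CD4 T-like cells (3.55% of all genes) and 3 of 75 in CD8 T-like cells (3.74%). In B-like cells it was 5 of 71 higher and 3 lower (5.16% and 2.7%). The counts were 2 of 64 higher and 4 lower in NK-like cells (3% and 4.74%) and 1 of 16 higher in monocyte-like cells (5.63%). Among 36 assembly genes Uqcc2 was called higher in CD4 T-like cells (1 of 28 measured), Coa7 and Cox18 in CD8 T-like cells (2 of 30), Cox10 and Cox20 in B-like cells (2 of 27) and Coa6 in NK-like cells (1 of 15), and none lower, where 3.55%, 3.74%, 5.16% and 3% of all genes were called higher. Among 11 carriers and other subunits Coq7 and Etfa were called higher in B-like cells (2 of 11), and among 8 regulators Myc was higher in B-like cells (1 of 5), against the same 5.16%. Of 12 genes for mitochondrial DNA expression Ssbp1 was called higher in CD8 T-like cells (1 of 8), against 3.74%. Of 113 cytosolic ribosomal protein genes 8 of 99 were called higher in NK-like cells (3% of all genes). Lower calls were 8 of 92 in monocyte-like cells (4.48%), 2 of 102 in CD4 T-like cells (2.33%) and 2 of 99 in B-like cells (2.7%). Nuclear subunits had a median log2 ratio of -0.09 in NK-like cells, 0.07 in CD4 T-like cells, 0.08 in B-like cells, 0.04 in monocyte-like cells and 0.06 in CD8 T-like cells. The same medians over all measured genes were -0.05, 0.02, 0.04, -0.02 and 0.02.

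Glycolysis genes were also read by class. In B-like cells 8 of 16 measured glycolysis genes were called lower (Hk1, Hk2, Pfkp, Tpi1, Eno1, Pkm, Ldha and Ldhb) against 15.8% of all genes, and Slc2a1, a glucose transporter, was called higher. In monocyte-like cells 6 of 9 were called higher (Aldoa, Tpi1, Gapdh, Pgam1, Eno1 and Pkm) against 17.8%, and in NK-like cells 3 of 10 (Hk1, Pfkp and Tpi1) against 13.1%. In CD4 T-like cells 6 of 16 were called lower against 19.7% and Ldhb higher. In CD8 T-like cells 4 of 16 were lower against 21.4%, a share near the background. Under the other scaling 7 of the 8 lower calls in B-like cells, 3 of the 6 higher calls in monocyte-like cells, 2 of the 3 in NK-like cells, 5 of the 6 lower calls in CD4 T-like cells and 1 of the 4 in CD8 T-like cells passed the fold in both libraries. The mobile electron carrier Cycs, cytochrome c, was at 349.7 and 355 CPM in NK-like cells and 338 and 310.1 in monocyte-like cells, against 152 and 135 in B-like cells. Of the mitochondrial ribosomal proteins 4 of 74 were called higher and 3 lower in B-like cells, against 10.9% and 15.8% of all genes, and 1 of 64 higher in NK-like cells, against 13.1%, all below the background.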

How the data were processed

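The authors deposited raw UMI counts per gene and barcode, unfiltered, for 1 library per genotype. They were made with Cell Ranger 2.1.1 and the mm10 genome, per the submitters' processing notes. The members and lists were chosen with earlier results of these data known. Cells were kept with at least 800 UMIs, at least 200 genes and at most 10% mitochondrial UMIs. This dropped 287 mutant and 18 wildtype barcodes of at least 800 UMIs for too few genes. Doublets were removed above a Scrublet score of 0.2, chosen after the scores were seen (69 and 133 cells, 1.65% and 2.55%). Both libraries were clustered together with scanpy 1.11.5, without the members and mitochondrial genes (2000 variable genes, 30 components, 15 neighbours, resolution 1.0), and a cluster was named when at least 3 markers of a type were among its 30 leading genes. Levels are UMIs per 1000000 (CPM) of summed cells, and intervals are exact Poisson for levels and Clopper-Pearson for ratios (scipy 1.17.1). No p-value is given, since there are no replicates. Named members were those called between libraries or in a class, every mitochondrial member, the nuclear member of highest mean level per complex and the paralogue groups, and Ndufs8 and Sdha were added after their values were seen. The library rule was run on simulated Poisson counts with known folds. Those counts hold no variation between cells, mice or libraries, so the run cannot show how the calls stand against such variation. Alternatives changed the cell filters, doublet removal, depth, clustering, scaling and free RNA subtraction, and their effects are given at the end. Promoter sequences are RefSeq's, GRCm38.p6.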

Additional observations from a re-analysis of the deposited data

How the results depend on the processing

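With 1 library per genotype no replicate could be left out. No paired analysis was possible because each genotype has 1 library. The class order of mitochondrial per nuclear subunit UMIs held as given above, and the B-like to NK-like ratio moved beyond its counting interval to 2.71 in the mutant library with up to 20% mitochondrial UMIs, to 2.7 in the wildtype library with up to 5%, and to 2.44 and 2.7 with at least 1500 UMIs per cell, 2.42 and 2.62 without doublet removal, 2.44 and 2.7 with cell-by-cell classes, and 3.01 and 3.36 with free RNA subtracted. The nuclear sum of the mutant over the wildtype library moved in CD4 T-like cells to 1.03 with cell-by-cell classes and 1.02 when scaled without mitochondrial and ribosomal UMIs. In CD8 T-like cells it moved to 1.06 with at least 1500 UMIs per cell, 1.06 at resolution 0.5, 1.06 in the largest cluster and 1.02 under the other scaling, and in B-like cells to 1.07 (at least 1500 UMIs per cell), 1.03 (largest cluster) and 1.02 (other scaling). In NK-like cells the other scaling gave 0.992. The mitochondrial sum moved with free RNA subtracted to 0.955 in CD4 T-like cells, 0.953 in CD8 T-like cells and 1.37 in monocyte-like cells, and under the other scaling to 0.958 in CD4 T-like cells, 0.948 in CD8 T-like cells and 1.06 in NK-like cells. Thinning gave 0.981 in CD8 T-like cells and 1.03 in monocyte-like cells, resolution 2.0 gave 0.95 in CD8 T-like cells, and the 20% limit gave 1.04 in B-like cells and 1.0006 in NK-like cells. The B-like value was 1.01 in the largest cluster. It was below 1, at 0.996 with cell-by-cell classes and 0.999 under the other scaling. The monocyte-like value turned to 0.933 (5% limit), 0.909 (20% limit), 0.884 (no doublet removal), 0.896 (resolution 0.5), 0.899 (resolution 2.0) and 0.9995 (cell-by-cell classes), and the cause was not tested. Members called higher between the libraries numbered 8 with at least 1500 UMIs per cell, 11 after thinning, 16 with free RNA subtracted, 3 with at least 200 UMIs per gene and 2 at a fold of 1.5, against 5, and members called lower numbered 4 after thinning, 4 under the other scaling and 2 at a fold of 1.5, against 7. Members called higher in a class numbered 21 with free RNA subtracted and 1 at a fold of 2, against 12, and members called lower numbered 9 without doublet removal, 9 after thinning, 29 with free RNA subtracted, 36 under the other scaling and 1 at a fold of 2, against 15. Depth limits single members most in the monocyte-like class, where 79 members reached 50 UMIs.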
